A study of Mus musculus with 4 samples.

Results

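The metabotropic glutamate receptor genes described here were Grm2, Grm3, Grm4, Grm5, Grm7 and Grm8, the 6 rows with these symbols among the 19465 genes of a table of spatial transcript counts from mouse brain. They were taken by symbol, with earlier results of these data known, and the other genes of the family were not analysed here. The counts came from the Visium CytAssist assay, in which probes bound to transcripts in a fixed, paraffin-embedded section are captured on a grid of barcoded spots, each a small region that can hold several cells. The coronal sections showed the striatum and came from 4 untreated mice, of which 2 were wild type and 2 were Celsr3 heterozygous. Age, strain and the Celsr3 allele are not given in the sources used here.

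These genes encode G protein-coupled receptors for glutamate, which tune synapses more slowly than the ion channels that glutamate opens. Grm5 couples through Gq to phospholipase C, sits mostly behind the synapse and is bound there by Homer and Shank scaffold proteins. Grm2 and Grm3 form one group, and Grm4, Grm7 and Grm8 belong to another; both groups couple to Gi and Go proteins and lower cyclic AMP. Grm2 and the Grm4, Grm7 and Grm8 receptors often sit on the sending terminal, where they limit transmitter release, so a transcript counted over a cell body can serve a terminal elsewhere. Grm3 is found in astrocytes as well as neurons.

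The spot names fell into 4 barcode sets, called sets 1 to 4, and no label ties a set to a mouse or a genotype. The genotypes were therefore not compared, and values are given for each set with 95% intervals that cover counting error only. Sets 1 to 4 held 3055, 2808, 3445 and 3294 spots, and their totals ran from 90752475 counts in set 4 to 174761560 in set 1. Of 4744 different barcodes, 1613 occurred in all 4 sets. Levels are given as CPM, the counts of a gene per 1000000 counts summed over the same spots. Each gene is read by its own probes, so levels were compared between spots and not between genes.

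Spots were clustered on genes other than the receptors and their partners, and a cluster took the name of an area only where the markers of that area led it. This gave 13 named areas and 10 clusters that are called by their leading pair of genes. The names stand for marker content and are not outlines drawn on the tissue. Cortical layers 5 and 6 rested on 1 marker among the 10 leading genes of their clusters. Different clusters supplied the striatum in different sets: one led by Syndig1l and Scn4b held 437 and 517 spots in sets 1 and 3, another held 510 in set 2, and one led by Lrrc10b and Pdyn held 280 in set 4. Likewise 1 cluster gave cortical layer 2/3 314 of its 318 spots in set 4 and another gave it 168 and 157 in sets 2 and 3. Areas or clusters with at least 30 spots in at least 2 sets numbered 20, and 11 of them reached this in all 4 sets.

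An area was called higher or lower for a gene where its CPM was at least 2-fold apart from that of all other spots, the same way in every set with at least 30 spots of it. Of 120 pairs of a receptor gene and an area or cluster, 7 were higher and 24 were lower. Among the 10144 genes that averaged 10 CPM or more, all 6 receptor genes included, 1.64% of such pairs were higher and 4.25% were lower. Grm2 had the most calls of the 6 genes, with 4 areas higher and 10 lower, and 0.799% of all genes were called in as many areas. Grm4 was higher in 2 and lower in 5, Grm3 higher in 1 and lower in 3, Grm8 lower in 3, Grm5 lower in 2 and Grm7 lower in 1. In such sums over mixed cells, fewer cells of a type and less RNA per cell cannot be told apart.

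**Figure D1:**
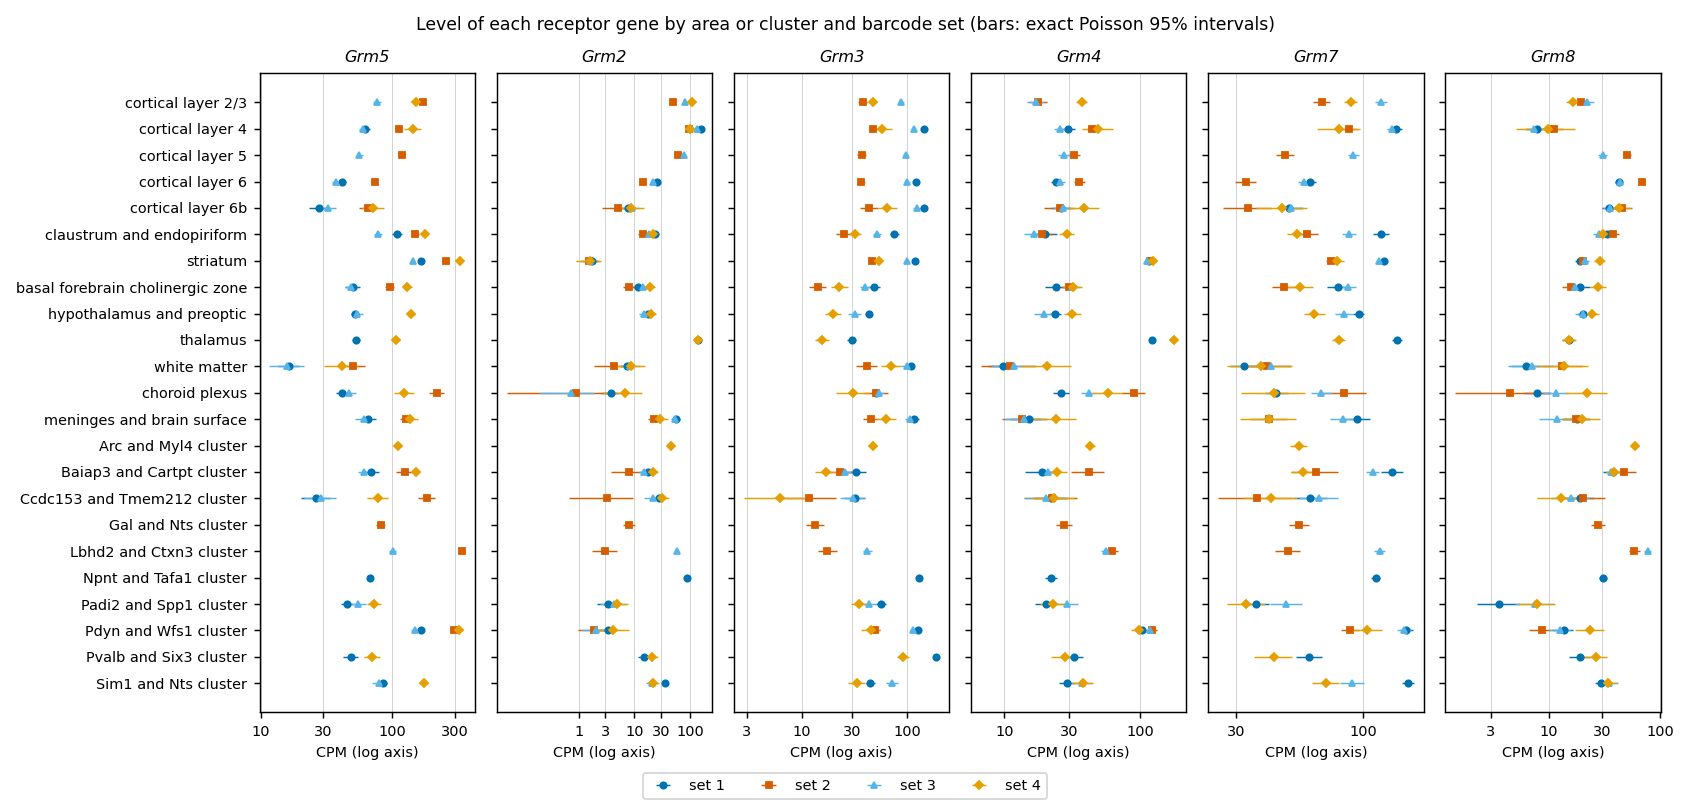
Level of each receptor gene (CPM, log axis) in each area or cluster, with 1 point per barcode set and bars for the exact Poisson 95% interval. In set 1 Grm2 runs from 1.75 CPM in the striatum to 159.6 CPM in cortical layer 4, and Grm7 runs from 32.1 to 153.4 CPM.

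Grm5, the Gq-coupled receptor, was high in the striatum and lowest in white matter in every set. In the striatum sets 1 to 4 held 165.2 CPM (95% interval 160.5 to 170.1), 257.3 CPM (250.7 to 264.0), 145.3 CPM (141.0 to 149.7) and 331.1 CPM (320.4 to 342.1). These levels were 2.77, 1.83, 2.30 and 2.49 times those of all other spots of the same set, so set 2 kept the striatum under the 2-fold rule. The cluster led by Pdyn and Wfs1 gave 165.8, 296.3, 149.6 and 323.7 CPM. Its intervals overlapped those of the striatum in sets 1, 3 and 4, and in set 2 it was 1.15 times higher.

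In white matter, the area led by Gfap and Mal, Grm5 stood at 16.3, 50.5, 15.99 and 41.3 CPM, 3.30 to 4.93 times lower than all other spots, where 11.2% of all genes were lower. In cortical layer 6b, a thin band of cells next to the white matter, it stood at 27.7, 66.2, 32.7 and 71.7 CPM, 2.21 to 2.82 times lower, where 3.26% of all genes were lower. Both calls depended on how spots were grouped: the first held under 8 of 12 other settings and the second under 8 of the 10 that had this area. Cortical layer 6 was low in Grm5 too, at 37.5 to 73.8 CPM. It stood 1.95 to 2.38 times lower than all other spots and missed the rule. In the cluster led by Lbhd2 and Ctxn3, in which 8 of 8 lateral septum markers were at least 2-fold higher, Grm5 read 344.9 CPM in set 2 and 101.3 CPM in set 3. Choroid plexus differed between sets as well, with 42.0, 219.5, 47.3 and 124.0 CPM from 94, 38, 90 and 47 spots. Many other genes changed there too. Of all genes, 27.9% passed 2-fold when set 2 was held against set 1, and 21.7% when it was held against set 3. For set 4 against set 1 the share was 16.1%, so a 2-fold difference in this area was not particular to Grm5. The highest set of Grm5 there was 5.23 times its lowest, and the share of genes past so large a difference was not counted.

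Grm2, which often acts as a brake on glutamate release, was high in the upper and middle cortex and the thalamus and near 0 in the striatum. In cortical layer 4, led by Kcnab3, Kcnh5 and Rorb, sets 1 to 4 held 159.6 CPM (152.0 to 167.6), 96.8 CPM (90.4 to 103.4), 133.8 CPM (128.0 to 139.8) and 100.7 CPM (83.7 to 120.2). These were 4.72, 5.62, 4.98 and 2.13 times all other spots, against 0.651% of all genes called higher there. Set 4, the lowest in this ratio, held 49 of the 582 spots of the layer. In the thalamus, led by Tcf7l2, Lhx9 and Gbx2 and found in sets 1 and 4, Grm2 reached 141.1 and 139.6 CPM, 4.29 and 3.99 times all other spots, against 2.28% of genes.

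Grm2 was also higher in cortical layer 2/3, with 50.3, 80.9 and 109.2 CPM in sets 2, 3 and 4, and in cortical layer 5, with 60.7 and 78.0 CPM in sets 2 and 3. The layer 2/3 values were 2.37, 2.41 and 2.79 times all other spots, against 1.03% of genes, but the call held under 6 of 12 other settings. Those of layer 5 were 3.15 and 2.41 times, against 0.71% of genes, a call held under 3 of the 4 other settings that had the layer. Layer 6 went the other way, at 25.6, 14.3 and 21.8 CPM in sets 1, 2 and 3, and its values missed the rule.

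The striatum held 49, 34, 46 and 17 counts of Grm2 over all its spots, or 1.75, 1.52, 1.57 and 1.56 CPM. This was 19.4 to 34.9 times lower than all other spots, against 7.01% of genes called lower there, and the call held under 12 of 12 other settings. The striatum was 63.8 to 91.1 times lower than layer 4 of the same sets, a pair in which 6.1% of genes were lower and 4.65% higher. The thalamus was 80.5 and 89.6 times higher than the striatum, where 8.91% of genes were higher and 6.65% lower. The 4 sets lay close together in this area although different clusters supplied it. Low levels were also found in the Pdyn and Wfs1 cluster, at 3.29, 1.91, 2.04 and 4.05 CPM (2.82% of genes lower), and in choroid plexus, where sets 2 and 3 held 1 and 4 counts (4.14%).

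Grm2 was lower as well in white matter (7.42, 4.39, 8.53 and 8.61 CPM), layer 6b (7.73, 5.06, 9.23 and 8.63 CPM), the basal forebrain (3.4% of genes lower), the hypothalamus (4.51%) and the clusters led by Padi2 and Spp1 (5.48%), Baiap3 and Cartpt (3.46%), and Pvalb and Six3 (6.72%). The Lbhd2 and Ctxn3 cluster split by set, with 3.01 CPM in set 2 (1.72 to 4.88) and 59.2 CPM in set 3 (54.7 to 64.1). Grm5 differed the other way between these sets in the same cluster. Between sets 2 and 3, 10.9% of all genes differed at least 2-fold in it. Whether the cluster covers the same tissue in both sets was not tested.

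**Figure D2:**
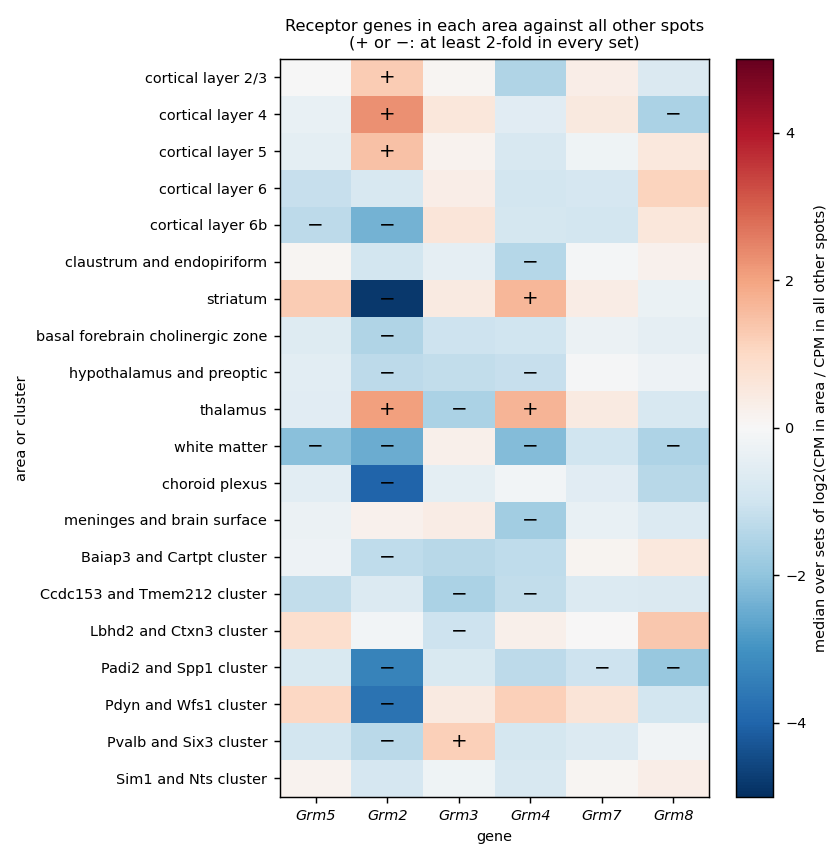
Colour gives the median over barcode sets of the log2 ratio of CPM in an area or cluster (rows) to that of all other spots, for each receptor gene (columns), and + or − marks a 2-fold call in every set. Grm2 lies 19.4 to 34.9 times lower in the striatum and 2.13 to 5.62 times higher in cortical layer 4.

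Grm3, the receptor shared by neurons and astrocytes, had its highest level of sets 1 and 4 in the cluster led by Pvalb and Six3, which had at least 30 spots in these sets alone. In set 4 the interval of white matter overlapped it. Its level there was 189.6 CPM in set 1 (177.1 to 202.7) and 91.6 CPM in set 4 (80.8 to 103.4), or 2.04 and 2.51 times all other spots, against 1.47% of genes called higher. In the thalamus it was low, at 29.7 and 15.7 CPM in the same sets, 3.40 and 2.65 times lower than all other spots, against 5.09% of genes. In a comparison chosen after the values were seen, Grm3 was 6.39 and 5.84 times higher in the Pvalb and Six3 cluster than in the thalamus, while Grm2 was 9.44 and 6.63 times and Grm4 3.79 and 6.42 times lower there. At least 2-fold differences between them were found for 2.85% of all genes upward and 4.71% downward.

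Astrocyte markers, none of them at 0, summed in sets 1 and 4 to 1780.6 and 2274.8 CPM in the Pvalb and Six3 cluster and to 1980.1 and 2074.7 CPM in the thalamus. The sum was thus lower in the cluster in set 1 and higher in set 4. White matter, where the sum was 3043.5 to 3340.3 CPM, held 109.1, 41.2, 98.8 and 70.6 CPM of Grm3 and missed the rule. Interneuron markers, a list that holds Pvalb, summed to 8950.0 to 12786.5 CPM in the cluster against 192.9 to 297.1 CPM in the thalamus. The part of either list in the result was not tested. Grm3 was also lower in the cluster led by Ccdc153 and Tmem212, at 32.0, 11.8, 30.3 and 6.13 CPM (3.74% of genes lower), and in the Lbhd2 and Ctxn3 cluster, where it was 2.09 and 2.02 times lower (3.84%). The latter call was lost when counts were thinned, 1 of the 4 other settings that had this cluster. In the striatum it was 118.8, 45.9, 99.3 and 53.5 CPM, 1.27 to 1.48 times all other spots.

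Grm4 was high in the striatum and the thalamus. In the striatum sets 1 to 4 held 116.3 CPM (112.4 to 120.4), 118.6 CPM (114.1 to 123.2), 112.8 CPM (109.0 to 116.7) and 124.8 CPM (118.3 to 131.6). The 4 sets were within 1.11 times of each other, and the area stood 2.22 to 3.59 times over all other spots, against 2.86% of genes called higher. In the thalamus Grm4 reached 122.6 and 178.0 CPM in sets 1 and 4, 2.84 and 3.70 times all other spots. The thalamus and the striatum did not differ beyond counting error in set 1, and in set 4 the thalamus was 1.43 times higher.

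Grm4 was lowest in white matter in every set, at 9.68, 10.98, 11.7 and 20.7 CPM, 3.15 to 5.27 times lower than all other spots. This call held under 7 of 12 other settings, and that in the claustrum, led by Ccn3 and Nr4a2, under 5 of the 11 that had it, with 2.18% of genes lower there. The meninges and brain surface, led by Ptgds, Fmod and Col1a2, held 15.3, 13.4, 13.9 and 23.9 CPM, against 2.04% of genes called lower there. The hypothalamus, led by Avp and Oxt, and the Ccdc153 and Tmem212 cluster were lower too. The Pdyn and Wfs1 cluster had 102.6, 123.3, 118.4 and 98.8 CPM, and set 4, at 1.55 times all other spots, kept it from being called.

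Grm7, a presynaptic receptor that binds Elfn1 across the synapse, varied less between areas, and 32.5% of all genes had at least as many calls as its 1. It was lower in the Padi2 and Spp1 cluster, at 36.0, 48.2 and 32.9 CPM in sets 1, 3 and 4, 2.03 to 2.82 times lower than all other spots. Under one other scaling of the sums (RLE) this call was lost. The highest level in set 1 was 153.4 CPM in the Sim1 and Nts cluster, and in sets 2, 3 and 4 it was 88.5, 147.9 and 104.4 CPM in the Pdyn and Wfs1 cluster. In sets 1, 2 and 4 the interval of the next area overlapped that of the highest.

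Grm8 was low in cortical layer 4, where sets 1 to 4 held 7.87 CPM (6.24 to 9.79), 11.1 CPM (8.99 to 13.5), 7.41 CPM (6.10 to 8.93) and 9.83 CPM (5.08 to 17.2). These were 2.94 to 3.96 times lower than all other spots, against 3.68% of genes called lower there. The value of set 4 rests on 12 counts. Grm8 was also lower in the Padi2 and Spp1 cluster, at 3.57, 7.49 and 7.89 CPM in sets 1, 3 and 4, and in white matter, a call that held under 4 of 12 other settings. It was highest in layer 6 in sets 1 and 2 (42.3 and 68.4 CPM), in the Lbhd2 and Ctxn3 cluster in set 3 (76.7 CPM) and in the cluster led by Arc and Myl4, found in set 4, at 59.7 CPM. In sets 1 and 2 the interval of the next area overlapped that of layer 6.

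Through the depth of the cortex, Grm2, Grm7 and Grm8 passed 2-fold in every set in some of the pairs of layers compared. These pairs were chosen after the values were seen, and layer 2/3 was compared with layer 4 alone. Grm5 held 77.5 to 172.7 CPM in layer 2/3, beside 37.5 to 73.8 CPM in layer 6 and 27.7 to 71.7 CPM in layer 6b. Against layer 6 in sets 1, 2 and 3, layer 4 held 6.23, 6.79 and 6.14 times more Grm2 and 2.27, 2.67 and 2.31 times more Grm7, and 5.38, 6.18 and 5.84 times less Grm8. Of all genes, 1.57% were higher and 2.05% lower by the same rule. Against layer 6b, layer 4 held 11.7 to 20.6 times more Grm2, with 2.46% of genes higher. Grm8 in layer 4 was also 4.12 to 4.72 times below layer 6b in the 4 sets, against 3.51% of genes lower, and 4.56 and 4.11 times below layer 5 in sets 2 and 3, against 1.07%. Layers 6 and 6b differed for Grm2 alone among the 6, with layer 6 higher by 2.36 to 3.32 times, against 0.789% of genes. Grm3 differed by at most 1.32 times between layer 4 and each of these layers or layer 2/3 in any set.

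**Figure D3:**
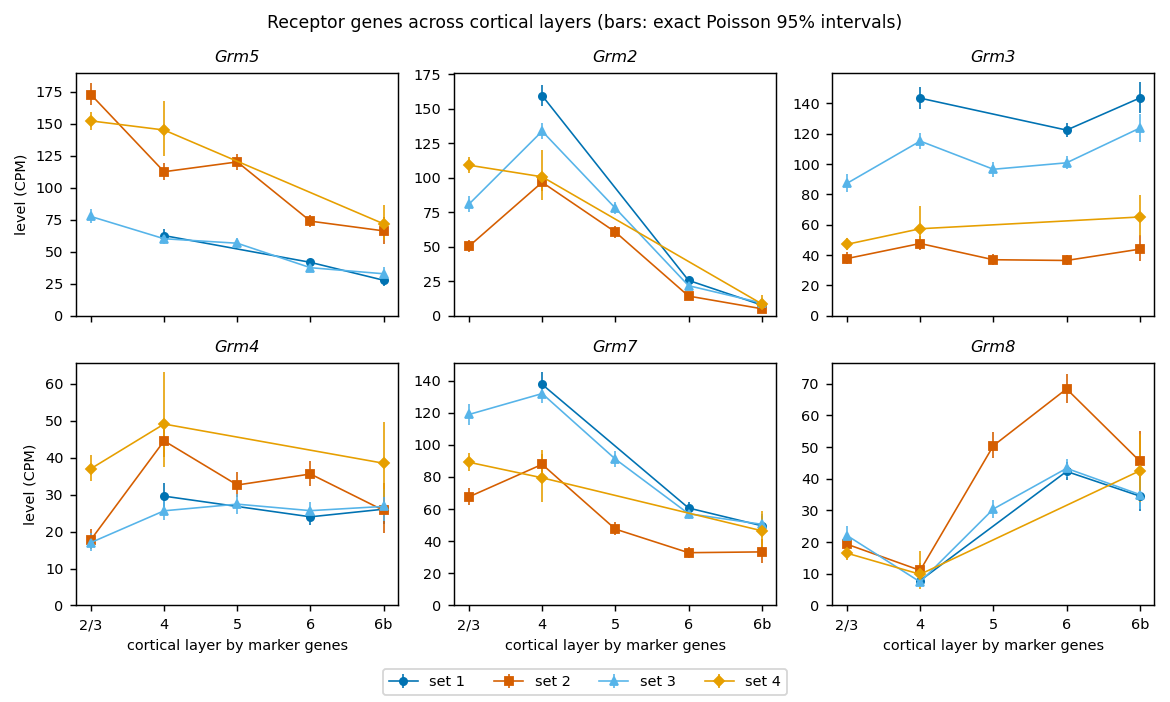
Level of each receptor gene (CPM) in cortical layers 2/3, 4, 5, 6 and 6b, with 1 point per barcode set, lines joining the layers a set holds (a missing layer is skipped) and bars for the exact Poisson 95% interval. Among the layers each set holds, Grm2 is highest in layer 4 in sets 1, 2 and 3, where Grm8 is lowest, at 7.41 to 11.1 CPM. Set 1 lacks layers 2/3 and 5, which had fewer than 30 spots there. Clusters with no area name are not drawn. That led by Npnt and Tafa1 held 247 spots, all in set 1, and that led by Arc and Myl4 held 334, all in set 4. In set 4 Grm2 stands at 109.2 CPM in layer 2/3 and 100.7 CPM in layer 4.

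Over the whole section the sets differed most for Grm3 and Grm5. In sets 1 to 4 Grm3 read 95.4, 35.6, 81.7 and 38.2 CPM, and Grm5 read 76.6, 164.6, 77.7 and 156.7 CPM. The sets with the higher level of one gene had the lower level of the other. Differences of at least 2-fold were found for 2 of the 6 genes between sets 1 and 2 (7.53% of all genes), sets 1 and 4 (8.01%), sets 2 and 3 (4.72%) and sets 3 and 4 (6.23%), and in each case these were Grm3 and Grm5. Between sets 1 and 3 none of the 6 differed so (0.591% of all genes), and between sets 2 and 4 only Grm2 did (0.868%). The sections did not hold the same areas. The thalamus had 0 spots in set 2 and 320 in set 4, where it gave 1594 of the 4367 Grm2 counts. The part of area content in these whole-section differences was not tested.

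Within the 11 areas or clusters found in all sets, Grm5 was higher in set 2 than in set 1 in 11 of 11, beyond counting error, and the same held for set 4 over sets 1 and 3 and for set 2 over set 3. Grm3 was higher in sets 1 and 3 than in set 4 in 11 of 11, and higher than in set 2 in 9 of 11. The areas of a set share its library, so they are not replicates of a difference between sets. Between sets 1 and 2, 6.3% of all genes in the striatum and 27.9% in choroid plexus were at least 2-fold apart. With TMM or RLE scaling, which rescale each library by a factor taken from many genes, Grm5 no longer reached 2-fold in any pair. Between sets 1 and 2 its log2 ratio went from -1.10 to -0.93 with TMM. Grm3 stayed past 2-fold, with a log2 ratio of 1.42 between sets 1 and 2 that became 1.59. With TMM the median log2 ratio of all genes moved between these sets from 0.07 to 0.24. The share of all genes past 2-fold rose from 7.53% to 9.77%, so TMM did not bring these sets closer together. Depth moved with these differences, with medians of 52481 and 44966 counts per spot in sets 1 and 3 and 38181.5 and 26444.5 in sets 2 and 4. After thinning to the smallest library the same number of the 6 genes differed 2-fold in each pair. Such thinning leaves the expected ratios unchanged, so it cannot show whether depth has a part, which was not tested.

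The remaining genes moved less between sets. Grm7 read 99.0, 59.5, 96.7 and 65.4 CPM, Grm2 41.2, 23.7, 36.6 and 48.1 CPM, Grm4 49.2, 55.02, 45.9 and 64.5 CPM, and Grm8 22.2, 31.1, 27.4 and 28.6 CPM. Grm7 was higher in set 1 than in set 2 in 9 of the 11 areas and than in set 4 in 8. The directions of Grm4 between sets 1 and 2 and of Grm2 between sets 1 and 4 turned under TMM scaling.

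**Figure D4:**
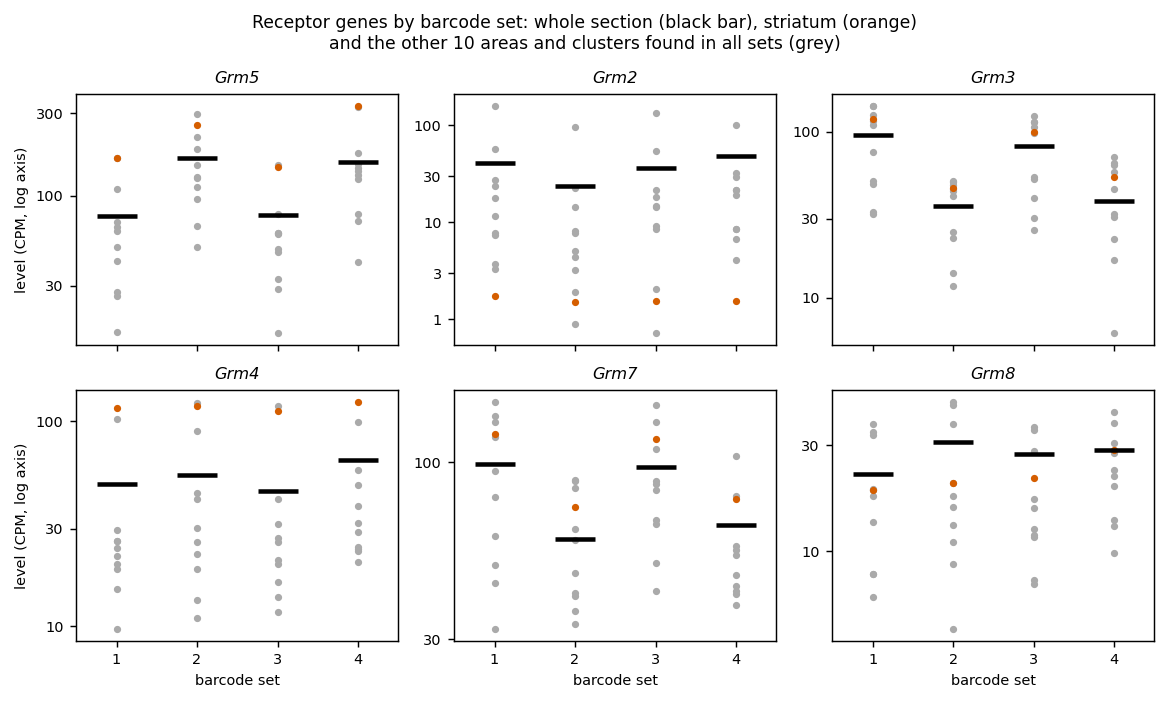
Level of each receptor gene (CPM, log axis) in the 4 barcode sets, with a black bar for the whole section, an orange point for the striatum and grey points for the other areas and clusters found in all sets. Over the whole section Grm3 reads 95.4, 35.6, 81.7 and 38.2 CPM and Grm5 76.6, 164.6, 77.7 and 156.7 CPM in sets 1 to 4.

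A list of 28 genes that signal from or bind these receptors was read by the same rule, with Tamalin under its older symbol Grasp. Of their 560 pairs with an area, 14 (2.5%) were higher and 60 (10.7%) were lower, beside 1.64% and 4.25% of the pairs of all genes. Homer3, under the 10 CPM limit, is counted among them. In the striatum 2 of 28 were higher and 5 lower, where 2.86% of all genes were higher and 7.01% lower. Those higher were the scaffold Shank3, by 2.13 to 2.46 times, and the inositol trisphosphate receptor Itpr1, by 2.73 to 3.19 times. Those lower included the scaffold Shank1, by 5.17 to 7.48 times, the phospholipase Plcb4, by 3.90 to 6.13 times, and Elfn1, the Grm7 partner, by 4.24 to 4.68 times. Homer2 and the Gi subunit Gnai1 were the others.

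Elsewhere Elfn1 was 4.02 to 6.52 times higher in the basal forebrain (0.66% of genes higher) and also higher in the Padi2 and Spp1 (2.93%) and the Sim1 and Nts (0.414%) clusters. Itpr1 was lower in the last of these, by 2.46 to 2.73 times (1.27% of genes lower), and Homer2 was 2.94 and 3.29 times higher in the Lbhd2 and Ctxn3 cluster (1.47%). Plcb4 was higher in the thalamus, by 2.44 and 3.31 times, and in the Pvalb and Six3 cluster. White matter had 12 of 28 lower, where 11.2% of all genes were, among them Itpr1 and the scaffold Shank2, and 1 higher, Homer3, by 3.63 to 5.19 times, with 5.38% of genes higher there. The meninges and brain surface had 5 higher (1.67% of genes), the scaffolds Homer2, Homer3 and Shank1 and the glutamate transporters Slc1a2 and Slc1a3. Slc1a3 is also in the astrocyte list, which summed to 3426.8 to 4374.3 CPM there. In cortical layers 2/3, 4, 5 and 6 and the claustrum, 0 of 28 were called, where 0.414% to 1.1% of all genes were higher and 2.18% to 4.06% lower. By list, the phospholipase C effectors had 3 of 140 pairs higher and 26 lower, the Homer and Shank scaffolds 6 and 18 of 120, the receptor partners 3 and 14 of 140, the Gi and Go subunits 0 and 2 of 100, and glutamate uptake 2 and 0 of 60, to be read against the 1.64% and 4.25% of all genes. Between sets, 2 of 28 differed at least 2-fold from lowest to highest, the Gq subunit Gnaq by 2.15 times and Itpr1 by 2.07 times.

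**Figure D5:**
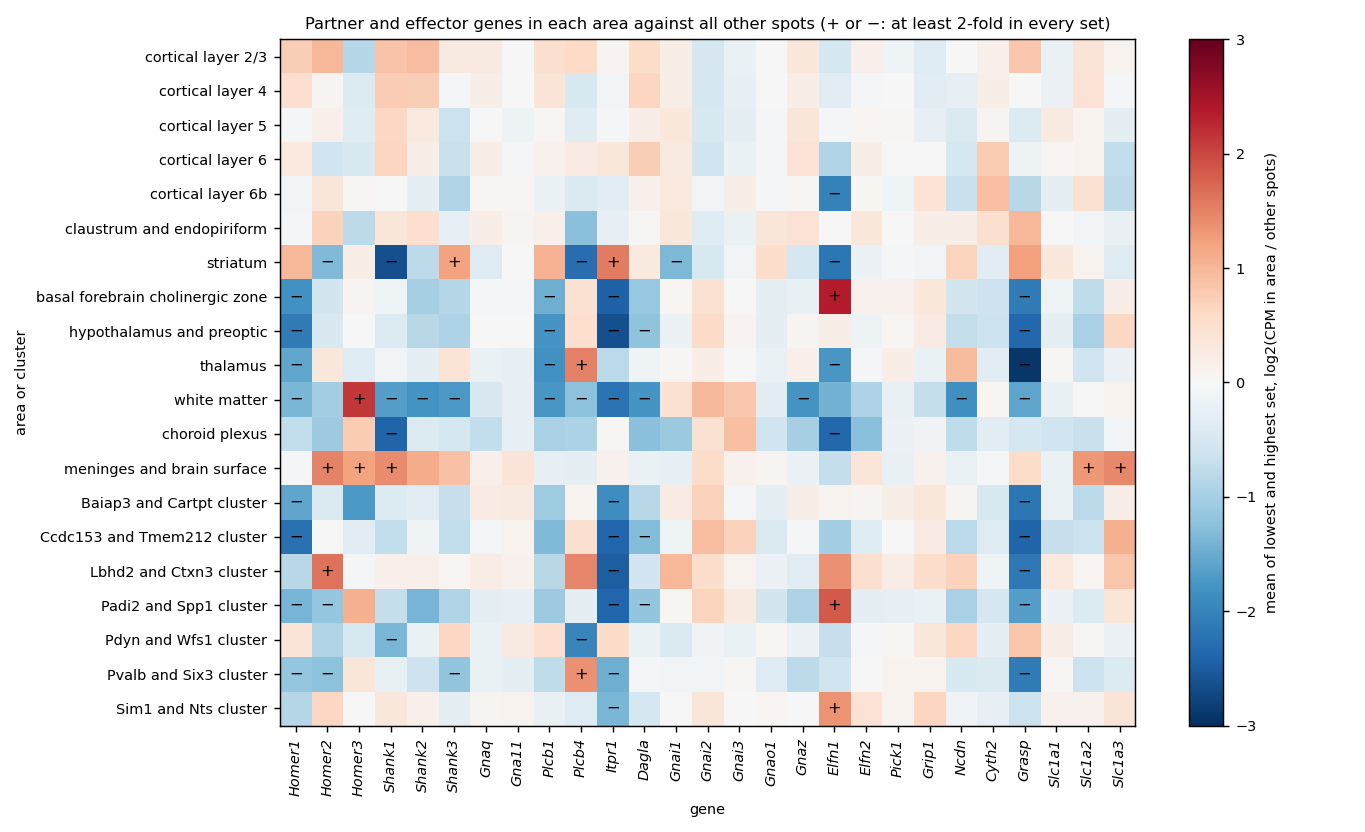
Colour gives the log2 ratio of CPM in an area or cluster (rows) to all other spots, as the mean of the lowest and highest set, for partner and effector genes (columns, not all of the 28 drawn), and + or − marks a 2-fold call in every set. Elfn1 is 4.24 to 4.68 times lower in the striatum and 4.02 to 6.52 times higher in the basal forebrain.

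The genes whose levels most resembled each receptor gene were found by Pearson's r of log2(CPM + 1) over 70 sums of an area and a set, which share libraries and depth, as a description. For Grm2 these were Medag (0.89), Cdh12 (0.86) and Neurod1 (0.85), and for Grm5 Ptpn5 (0.89), Agfg2 (0.88) and Slc9a5 (0.87). For Grm3 they were Ppp2r5a (0.84), Lrrc8b (0.83) and Ube2g1 (0.81), and for Grm4 Tmem41a (0.81), Ppp2r5d (0.81) and Pde1b (0.79). Grm7 was most like Cacna1c (0.78), Akap11 (0.77) and Gucy1b1 (0.77), and Grm8 was least matched, with Sstr2 and Rab26 at 0.70 and Slc25a22 at 0.68. Among the receptor genes, Grm4 and Grm5 had the highest r, 0.60. With each set centred on its own mean, a choice made after the values were seen, Grm5 and Grm7 went from 0.22 to 0.73. The closest genes then became Sort1 (0.81), Tiam2 (0.80) and Tyro3 (0.79) for Grm3. For Grm7 they became Ajap1 (0.82), Cntnap5b (0.78) and Calb1 (0.78), and Ajap1 (0.90) then came first for Grm5 as well. Those of Grm2, Grm4 and Grm5 changed in part, while those of Grm8 stayed the same.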

How the data were processed

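Visium CytAssist counts of 4 coronal mouse brain sections were analysed. The authors deposited 1 table of raw counts per gene and spot; Space Ranger and Seurat are named in the submitters' processing notes, and their versions, the aligner and the genome build are not given in the sources used here. The receptor genes and gene lists were chosen with earlier results of these data known. Spots with at least 500 counts were kept, which removed 1. Counts were scaled to 10000 per spot and logged, and 2000 variable genes, centred within each barcode set, gave 30 principal components, 15 neighbours and Leiden clusters at resolution 0.8 (scanpy 1.11.5, leidenalg 0.10.2). A cluster was named where 1 list had the most markers among its 10 leading genes and at least 3 markers 2-fold higher, with no tie and no other list ahead; this rule, the pairs of areas compared and the centred correlations were set after values were seen. No doublet caller was run. Counts were summed per area and set, and CPM, ratios and exact 95% intervals (Poisson, conditional binomial; scipy 1.17.1) were computed, with a floor of 3 counts for 0. Scaling factors (TMM, RLE) were computed with edgeR 4.0.16 from the sums, and scripts were tested on simulated data. Named genes were the 6 receptors, pathway genes past 2-fold, the 3 most alike genes per receptor and leading genes of clusters. Neither a genotype test nor a p-value was computed, since no set could be tied to a sample. Probe reads per set limit precision as the intervals show. The marker genes Etv1 and Ly6c1 were not used here, and some genes are not reported here.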

Additional observations from a re-analysis of the deposited data

Results flagged for a closer look

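In 72 groups of 4 sets, 3 values stood apart from the other sets of the same area by Dixon's test of the gap to the nearest value, and chance gives about 1 in 20 groups. Grm3 in choroid plexus was 30.5 CPM in set 4, below the next value of 50.4 CPM. Grm4 in cortical layer 6b was 38.5 CPM in set 4, above the next value of 26.8 CPM. Grm8 in the Baiap3 and Cartpt cluster was 47.2 CPM in set 2, above the next value of 37.9 CPM.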

How the results depend on the processing

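Of the 31 calls of a receptor gene in an area, TMM scaling kept 31, counts thinned to the smallest library 30 and RLE scaling 29. Where spots were regrouped, 15 to 28 of the 31 still had their area, and fewer calls were kept: 12 of 21 by marker score, 17 of 21 at resolution 0.4, 23 of 28 at resolution 1.2, 14 of 15 with no centring, 21 of 24 with a minimum of 2000 counts, and 14 of 18, 20 of 22, 15 of 20 and 15 of 18 without sets 1, 2, 3 and 4. Receptor pairs called higher went from 7 to 4 with no centring within sets, with areas by marker score, and when spots were clustered without set 1 or without set 4. Receptor pairs called lower went from 24 to 14 at resolution 0.4 and to 11 by marker score. Pathway pairs called higher went from 14 to 9 at resolution 0.4 and to 7 by marker score, and those called lower from 60 to 38 by marker score and to 33 without set 1. These settings had 14 to 18 areas in place of 20, and beyond that the cause was not tested. Receptor genes at least 2-fold apart went from 2 to 1 between sets 1 and 2, 1 and 4, 2 and 3, and 3 and 4, and from 1 to 0 between sets 2 and 4, with TMM and with RLE scaling. Under TMM the log2 ratio of set 1 to set 2 for Grm4 turned to 0.011 and that of set 1 to set 4 for Grm2 to 0.021. TMM scaling moved the median ratio of all genes in an area by -0.25 to 0.20 on the log2 scale. No called pair turned its direction in the settings that had its area, 4 to 12 of the 12 for each pair. The genotype test, its DESeq2 alternative and the replicate block were not run. No paired analysis was possible because no barcode set could be tied to a labelled sample. Levels under about 10 counts, such as Grm2 in choroid plexus, are limited by depth.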
